A study of Homo sapiens with 12 samples.

Results

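CTGF, CYR61, ANKRD1, AMOTL1, AMOTL2, NUAK2, NT5E and CRIM1 are 8 widely used target genes of the transcriptional coactivators YAP and TAZ. They were taken by symbol from an expression table of 11529 genes, and all 8 were in it. RNA had been sequenced from a pair of human triple-negative breast cancer cell lines, MDA-MB-231 and MDA-MB-468. Each line had 3 control samples and 3 SMARCA4 KO samples, 12 in total. The control samples are called wild type in their titles and control in their descriptions. The KO samples are polyclonal pools of cells transduced with a lentiviral CRISPR vector (lentiCRISPR-v2) carrying Cas9 and a guide RNA against SMARCA4, and then selected with puromycin, so that they hold a mixture of edited and possibly unedited alleles and not a clone. What vector, if any, the control cells received was not given in the labels. SMARCA4 encodes BRG1, the ATPase of the SWI/SNF chromatin remodelling complexes. The study's question for these genes was whether YAP/TAZ target expression changes when SMARCA4 is lost, in a basal-like line (MDA-MB-468) and in a mesenchymal line (MDA-MB-231).

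YAP1 and WWTR1, the genes of YAP and TAZ, encode coactivators with no DNA-binding domain of their own. The Hippo kinases STK3 and STK4, and below them LATS1 and LATS2, phosphorylate both proteins and thereby hold them in the cytoplasm. When this phosphorylation is low they enter the nucleus and bind TEAD factors, which recognise the motif GGAATG and recruit them to promoters and enhancers. In breast cancer cells the pathway is known for its links with migration, stiffness sensing and drug response. The 8 genes have different roles. CTGF (now CCN2) and CYR61 (now CCN1) encode secreted matricellular proteins, and ANKRD1 encodes an ankyrin repeat protein that acts as a nuclear cofactor and is abundant in heart muscle. AMOTL1 and AMOTL2 encode angiomotin family scaffolds at cell junctions that bind YAP and TAZ, and NUAK2 encodes a kinase related to AMPK. NT5E encodes CD73, the cell surface enzyme that turns AMP into adenosine, and CRIM1 encodes a transmembrane protein with cysteine-rich repeats that binds bone morphogenetic proteins.

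The sequences upstream of the annotated starts are shown for the members whose 250 upstream bases held the TEAD motif. They come from RefSeq (GRCh38.p14), whose promoter table matched 6 of the 8 members by symbol. CYR61 and CRIM1 had no entry there. All 4 genes lie on the minus strand, and each sequence is written in the direction of transcription, with GGAATG or its reverse complement CATTCC in capitals. The CTGF sequence is chr6:131951373-131951622, the ANKRD1 sequence chr10:90921088-90921337, the NUAK2 sequence chr1:205321746-205321995 and the AMOTL2 sequence, upstream of the second of its annotated starts, chr3:134374448-134374697.
CTGF: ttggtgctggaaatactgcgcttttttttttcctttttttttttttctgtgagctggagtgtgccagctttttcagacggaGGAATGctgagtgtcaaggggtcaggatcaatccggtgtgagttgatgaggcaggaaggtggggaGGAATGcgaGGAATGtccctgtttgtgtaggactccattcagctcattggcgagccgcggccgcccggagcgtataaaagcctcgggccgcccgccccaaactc
ANKRD1: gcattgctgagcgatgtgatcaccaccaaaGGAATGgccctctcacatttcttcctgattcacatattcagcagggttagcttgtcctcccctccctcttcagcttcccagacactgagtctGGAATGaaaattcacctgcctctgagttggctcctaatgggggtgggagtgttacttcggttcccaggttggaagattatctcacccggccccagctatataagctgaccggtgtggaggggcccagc
NUAK2: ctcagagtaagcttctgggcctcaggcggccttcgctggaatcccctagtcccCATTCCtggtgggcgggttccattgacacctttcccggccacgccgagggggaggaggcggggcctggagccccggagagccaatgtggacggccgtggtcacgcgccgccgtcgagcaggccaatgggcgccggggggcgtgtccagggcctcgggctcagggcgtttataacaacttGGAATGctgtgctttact
AMOTL2: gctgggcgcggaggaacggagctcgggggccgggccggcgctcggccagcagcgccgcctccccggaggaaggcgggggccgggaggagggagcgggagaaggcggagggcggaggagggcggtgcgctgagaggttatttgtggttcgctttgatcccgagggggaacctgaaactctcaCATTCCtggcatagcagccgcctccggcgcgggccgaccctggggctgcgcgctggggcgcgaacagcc

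The CTGF sequence held 3 copies of the motif, all on the gene's strand, with their first bases 169, 104 and 95 bases before the start. The ANKRD1 sequence held 2 on the gene's strand, at 220 and 128 bases. The NUAK2 sequence held 2, 1 on the opposite strand between 197 and 192 bases before the start and 1 on the gene's strand at 18 bases. The second AMOTL2 start had 1 copy on the opposite strand, between 69 and 64 bases before it, and the first AMOTL2 start had 0. No match was found in the same window of AMOTL1 or NT5E. Of 35116 promoter windows of the same length in the table, 11.9% held GGAATG on either strand. The AP-1 motif TGACTCA, which often accompanies TEAD motifs in enhancers, was in 0 of the 7 member windows and in 4.20% of all windows, counting both strands. These matches describe letters in a short window, and no binding was measured here.

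**Figure D1:**
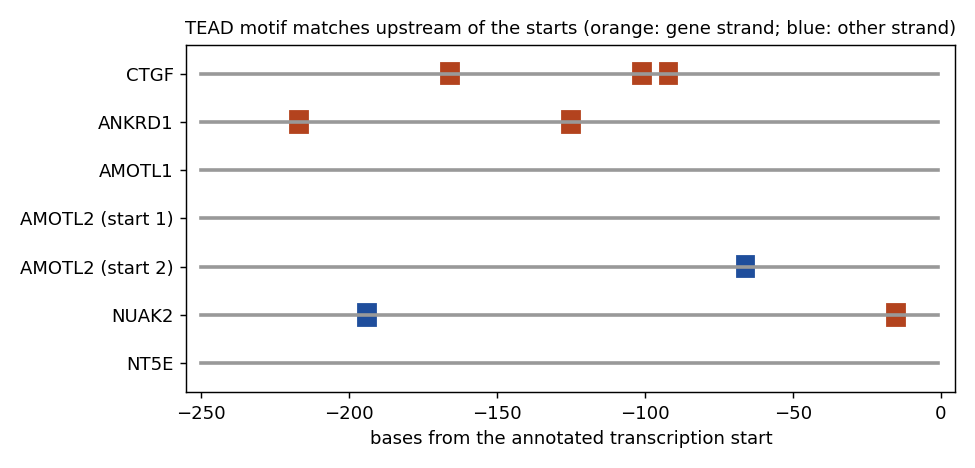
Matches to the TEAD motif GGAATG in the 250 bases upstream of each annotated RefSeq start of the 6 members found in the promoter table. The x axis is the distance from the start in bases, orange blocks are matches on the gene's strand and blue blocks matches on the opposite strand, and CTGF has the most, with 3.

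By the GENCODE annotation on GRCh37, the 8 genes are protein-coding and lie on 6 chromosomes: CTGF at chr6:132269316-132272512, CYR61 at chr1:86046444-86050272, ANKRD1 at chr10:92671853-92680844, AMOTL1 at chr11:94439597-94609913, AMOTL2 at chr3:134074189-134094321, NUAK2 at chr1:205271191-205290873, NT5E at chr6:86159302-86205509 and CRIM1 at chr2:36582921-36778278. CTGF overlaps LINC01013 on the opposite strand, AMOTL1 overlaps PIWIL4-AS1 and CRIM1 overlaps FEZ2. The library kit keeps strand, but whether the read counting used it was not given in the sources used here, so reads of these 3 members may include reads of the opposite gene. AMOTL2 overlaps RPL39P5, a ribosomal protein pseudogene, on the same strand, so how reads were shared between this pair cannot be told from strand.

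All values below are the deposited log2(FPKM + 1) values, where FPKM counts fragments relative to transcript length and to the mapped total, or the FPKM computed back from them. A log2 difference on this scale understates the change of a gene at a low level. Depth is unknown, because the table holds no counts, and the samples had 11293 to 11362 genes above 0. SMARCA4, checked first, was lower in all KO samples than in all control samples of its line. The KO samples of MDA-MB-468 had 44.3% and those of MDA-MB-231 32.7% of the control FPKM on average, and the log2 fold changes were -1.16 and -1.57 (limma adjusted p = 0.014 and 0.0014). Line markers went with the labels: EGFR, CDH1, EPCAM, KRT5 and KRT17 were all called higher in control MDA-MB-468, and VIM, ZEB1 and AXL were called higher in control MDA-MB-231. SPARC, ESR1 and PGR were not in the table. Of the markers of other cell types only CD14 was in the table, and PTPRC, CD3E and PECAM1 were not. Because each sample is bulk RNA of a pool, a small change in every cell and a large change in a few cells cannot be told apart.

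The authors had removed genes with a mean or an SD of FPKM under 1 over the 12 samples, so every gene in the table had to vary. All 8 members passed. With the 6 MDA-MB-468 samples alone ANKRD1 would not have passed (mean FPKM 1.94, SD 0.288), and with the 6 MDA-MB-231 samples alone NUAK2 would not have passed (SD 0.586).

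The control samples of the 2 lines differed in most members. SE is the standard error of a log2 difference, and each adjusted p is from limma by the Benjamini-Hochberg method over all 11529 genes. Called means an adjusted p under 0.05 together with a log2 difference over 0.5 in size. Of the 8 members, 5 were called lower in control MDA-MB-468 than in control MDA-MB-231 (CTGF, CYR61, ANKRD1, NT5E and CRIM1), where 31.4% of all genes were called lower. AMOTL2 was called higher, as were 32.7% of all genes. AMOTL1 and NUAK2 were lower by less than the fold limit. The samples of the 2 lines did not overlap in 8 of the 8 members, but neither did they in 85.5% of all genes. The median difference was -1.39 over the members and 0.01 over all genes. One line stands on each side of this comparison, so the line and the way each line was grown and sequenced cannot be told apart.

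ANKRD1 differed most between the lines. Its log2 values were 6.95, 6.97 and 7.34 in the MDA-MB-231 controls and 1.78, 1.64 and 1.51 in the MDA-MB-468 controls. In FPKM these are 136 ± 21.5 (SD, n = 3) and 2.13 ± 0.291 (SD, n = 3), so that MDA-MB-468 stood at 1.56% of MDA-MB-231 (log2 difference -5.45, SE 0.12, limma adjusted p = 7.3e-09). The gene was abundant in the mesenchymal line and low in the basal-like line. Without the MDA-MB-231 samples it would not have passed the FPKM filter, so its place in the table rests on the line where it is high.

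CTGF log2 values were 6.99, 6.18 and 6.49 in the MDA-MB-231 controls and 3.20, 3.33 and 3.91 in the MDA-MB-468 controls, a difference of -3.08 (SE 0.24, limma adjusted p = 7.9e-06). Its mean FPKM in MDA-MB-468 was 10.9% of that in MDA-MB-231. CYR61, the other CCN gene, was the member with the highest level in both lines, at log2 values of 9.17, 8.64 and 8.92 against 7.12, 7.25 and 7.11. The lowest MDA-MB-231 control thus lay above the highest MDA-MB-468 control for the RNAs of both secreted proteins. The CYR61 difference was -1.75 (SE 0.13, limma adjusted p = 5.9e-06).

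The RNAs of the 2 surface proteins were also lower in MDA-MB-468. NT5E log2 values were 7.94, 7.80 and 7.61 in the MDA-MB-231 controls against 4.70, 4.85 and 5.16 in the MDA-MB-468 controls, a difference of -2.88 (SE 0.13, limma adjusted p = 3.7e-07). CRIM1 values were 6.17, 5.92 and 5.87 against 4.83, 5.02 and 5.04, a difference of -1.02 (SE 0.10, limma adjusted p = 3.3e-05). In FPKM the MDA-MB-468 control level was 13.2% of the MDA-MB-231 level for NT5E and 48.3% for CRIM1.

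The angiomotin genes and NUAK2 differed less. AMOTL2 was the one member with the higher level in MDA-MB-468, at log2 values of 5.93, 6.27 and 6.03 against 5.47, 5.31 and 5.36 in MDA-MB-231 (difference 0.70, SE 0.10, limma adjusted p = 0.00031). AMOTL1 values were 4.00, 3.87 and 3.92 in MDA-MB-468 against 4.27, 4.40 and 4.17, and NUAK2 values were 1.83, 2.00 and 1.92 against 2.45, 2.27 and 2.34. These differences, -0.35 and -0.43, had limma adjusted p of 0.0045 and 0.0013 and were smaller than the fold limit of 0.5. For NUAK2 the difference became -0.54 with a pseudocount of 0.1 and -0.60 after quantile normalization, which is past the limit.

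Since FPKM is per length, the members can be ranked within a line. In the MDA-MB-231 controls the mean log2 level fell in the order CYR61 (8.91), NT5E (7.79), ANKRD1 (7.09), CTGF (6.55), CRIM1 (5.98), AMOTL2 (5.38), AMOTL1 (4.28) and NUAK2 (2.35). The samples of ANKRD1 and CTGF overlapped in this order, and those of the other neighbours did not. In the MDA-MB-468 controls the order was CYR61 (7.16), AMOTL2 (6.08), CRIM1 (4.96), NT5E (4.90), AMOTL1 (3.93), CTGF (3.48), NUAK2 (1.92) and ANKRD1 (1.64), with overlap of CRIM1 and NT5E and of AMOTL1 and CTGF.

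**Figure D2:**
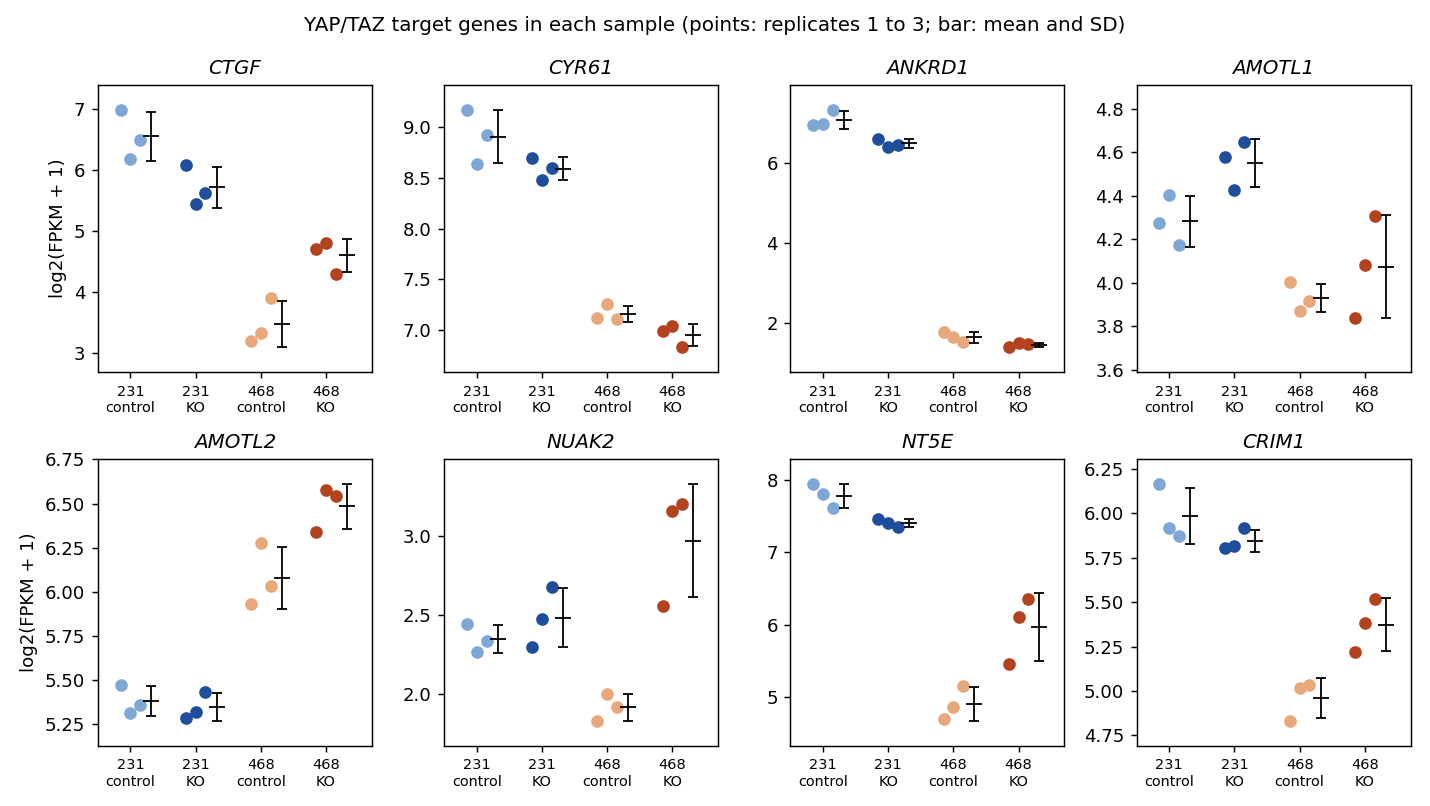
Level of each of the 8 YAP/TAZ target genes in the 12 samples. The y axis is log2(FPKM + 1) on a scale of its own in each panel, the x axis gives the cell line by the last part of its name and genotype, points are replicates 1 to 3 from left to right, and bars are the mean and SD; the MDA-MB-468 KO samples lie above their controls for CTGF, AMOTL2, NUAK2, NT5E and CRIM1.

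In MDA-MB-468 cells, 6 members had a higher and 2 a lower mean in KO than in control samples. The median log2 fold change was 0.41 over the members and 0.02 over all genes. The members were chosen with earlier results of these data known. Their medians and counts, here and in the other comparisons, therefore describe the set and do not test it. NUAK2 was called higher, and no member was called lower, where 1.33% of all genes were called higher and 0.815% lower. At an unadjusted p under 0.05 there were 6 members and 2899 of all 11529 genes. The KO samples lay wholly above the controls for CTGF, AMOTL2, NUAK2, NT5E and CRIM1 and wholly below for CYR61 and ANKRD1, 7 of 8 members, against 31.0% of all genes whose groups did not overlap.

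NUAK2, the AMPK-related kinase, had log2 values of 1.83, 2.00 and 1.92 in MDA-MB-468 controls and 2.56, 3.16 and 3.20 in KO samples. Its mean FPKM went from 2.79 ± 0.225 (SD, n = 3) to 7.01 ± 1.84 (SD, n = 3), 252% of the control. Each KO sample lay above each control, with KO replicate 1 the lowest of the KO samples. The log2 fold change was 1.05 (SE 0.18, limma adjusted p = 0.044). This call was close to the threshold, and NUAK2 would not have passed the FPKM filter with the MDA-MB-231 samples alone. In a fit that blocked on replicate number the limma adjusted p was 0.052, and when each sample was left out in turn the call was lost in 5 of 6 fits, at limma adjusted p of 0.11 to 0.15. It was kept without KO replicate 1 (limma adjusted p = 0.015).

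CTGF had log2 values of 3.20, 3.33 and 3.91 in MDA-MB-468 controls and 4.71, 4.80 and 4.29 in KO samples. The highest control and the lowest KO sample, both replicate 3, were separated by less than the range of either group. The mean FPKM went from 10.4 ± 3.16 (SD, n = 3) to 23.5 ± 4.40 (SD, n = 3), and the log2 fold change of 1.12 (SE 0.23) did not pass (limma adjusted p = 0.059). It passed with genes of a mean log2 value over 2 alone (limma adjusted p = 0.021) and in the limma fit of all 12 samples (limma adjusted p = 0.013). In 6 of 6 fits that left out a sample it stayed uncalled, at limma adjusted p of 0.067 to 0.18. CYR61, the related gene, had KO samples just below its controls. Its values were 7.12, 7.25 and 7.11 in controls and 6.99, 7.04 and 6.83 in KO samples, a log2 fold change of -0.21 (SE 0.08, limma adjusted p = 0.16).

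NT5E had log2 values of 4.70, 4.85 and 5.16 in controls and 5.45, 6.10 and 6.36 in KO samples of MDA-MB-468, again with replicate 1 lowest among the KO samples. The mean FPKM in KO samples was 219% of the control. Its log2 fold change was 1.07 (SE 0.26) and did not pass (limma adjusted p = 0.077), but without KO replicate 1 the limma adjusted p was 0.028. In 5 of 6 fits that left out a sample it stayed uncalled, at limma adjusted p up to 0.22. CRIM1 values were 4.83, 5.02 and 5.04 in controls and 5.22, 5.38 and 5.52 in KO samples, a log2 fold change of 0.41 (SE 0.10, limma adjusted p = 0.076).

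For AMOTL2 the values were 5.93, 6.27 and 6.03 in controls and 6.34, 6.58 and 6.54 in KO samples, a log2 fold change of 0.41 (SE 0.11, limma adjusted p = 0.10). Its paralog AMOTL1 had overlapping groups, with 4.00, 3.87 and 3.92 in controls and 3.84, 4.08 and 4.31 in KO samples, and a log2 fold change of 0.14 (SE 0.12, limma adjusted p = 0.51). ANKRD1 was low in every MDA-MB-468 sample, at 1.78, 1.64 and 1.51 in controls and 1.40, 1.50 and 1.47 in KO samples, and its log2 fold change was -0.19 (SE 0.08, limma adjusted p = 0.22).

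KO replicate 1 was the lowest of the 3 MDA-MB-468 KO samples in 6 of the 8 members (AMOTL1, AMOTL2, NUAK2, NT5E and CRIM1, which had the higher mean in KO samples, and ANKRD1). Its SMARCA4 log2 value was also the lowest of the KO samples (5.35, 5.48 and 5.61). Without it, 474 genes were called in MDA-MB-468 in place of 247. Control replicate 1 was likewise the lowest of the MDA-MB-468 controls in 5 of the 8 members.

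In MDA-MB-231 cells the balance was the other way, with 6 members lower and 2 higher on average in KO samples. The median log2 fold change was -0.23 over the members and -0.01 over all genes. ANKRD1 was called lower, and no member was called higher, where 1.31% of all genes were called lower and 2.39% higher. At an unadjusted p under 0.05 there were 4 members and 3596 of all genes. KO and control samples did not overlap in 4 of 8 members, with CTGF, ANKRD1 and NT5E below and AMOTL1 above the controls, while 36.0% of all genes had groups that did not overlap.

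ANKRD1 log2 values were 6.95, 6.97 and 7.34 in MDA-MB-231 controls and 6.62, 6.41 and 6.47 in KO samples. The mean FPKM went from 136 ± 21.5 (SD, n = 3) to 89.6 ± 6.77 (SD, n = 3), 65.8% of the control. It fell by 0.59 on the log2 scale (SE 0.12, limma adjusted p = 0.040). This call too was close to the threshold, and it was lost in 6 of 6 fits that left out a sample, at limma adjusted p of 0.054 to 0.13.

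CTGF log2 values were 6.99, 6.18 and 6.49 in MDA-MB-231 controls and 6.09, 5.44 and 5.62 in KO samples. Replicate 1 was the highest sample of each group, and the highest KO sample lay just below the lowest control. The log2 fold change of -0.84 (SE 0.26) did not pass (limma adjusted p = 0.091), but it did in the fit of all 12 samples (limma adjusted p = 0.039) and with genes of a mean log2 value over 2 alone (limma adjusted p = 0.043). In 6 of 6 fits that left out a sample it stayed uncalled, at limma adjusted p of 0.089 to 0.24. NT5E values were 7.94, 7.80 and 7.61 in controls and 7.46, 7.41 and 7.35 in KO samples, a log2 fold change of -0.38 (SE 0.09, limma adjusted p = 0.054).

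The other 5 members differed less in MDA-MB-231. CYR61 values were 9.17, 8.64 and 8.92 in controls and 8.70, 8.48 and 8.60 in KO samples, which overlapped, with a log2 fold change of -0.32 (SE 0.14, limma adjusted p = 0.20). AMOTL1 lay above the controls in KO samples, at 4.58, 4.43 and 4.64 against 4.27, 4.40 and 4.17, a log2 fold change of 0.27 (SE 0.09, limma adjusted p = 0.10). CRIM1, NUAK2 and AMOTL2 overlapped, with log2 fold changes of -0.14, 0.14 and -0.03 and limma adjusted p of 0.35, 0.44 and 0.77. The 95% interval of the AMOTL2 change ran from -0.20 to 0.13, and its sign turned in 3 alternative fits. Control replicate 1 was the highest of the MDA-MB-231 controls in 6 of 8 members.

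**Figure D3:**
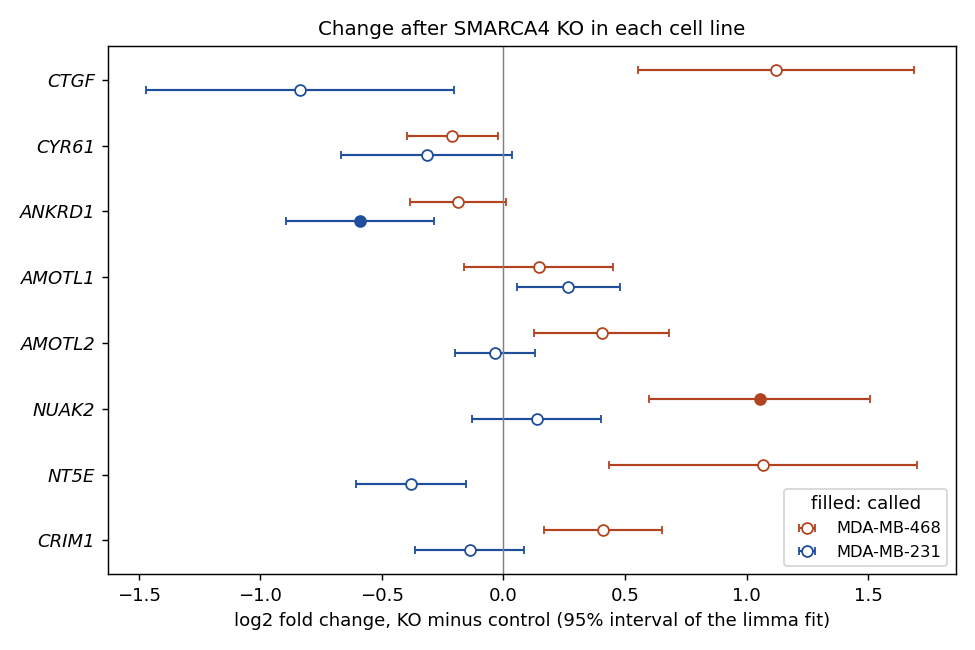
Log2 fold change of KO against control samples for each member in MDA-MB-468 (orange) and MDA-MB-231 (blue). The x axis is the difference of mean log2(FPKM + 1) values, bars are 95% intervals of the limma fit, and filled points are called; NUAK2 in MDA-MB-468 (1.05) and ANKRD1 in MDA-MB-231 (-0.59) are the filled points, while CTGF lies at 1.12 in one line and -0.84 in the other.

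The difference of the KO effect between the lines was tested in 1 fit of all 12 samples, as the effect in MDA-MB-468 minus that in MDA-MB-231, and called at an adjusted p under 0.05. CTGF, NUAK2, NT5E and CRIM1 were called, all with the higher effect in MDA-MB-468, and no member had the lower effect there by this test. Of all genes, 7.91% were called with a higher and 6.83% with a lower effect in MDA-MB-468. The median difference was 0.49 over the members and 0.02 over all genes. Scaling the samples to the same 75th percentile moved the share of higher effects among all called genes from 53.7% to 41.6%, and the 4 members stayed called under it.

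The CTGF effect differed by 1.96 (SE 0.34, 95% interval 1.21 to 2.71, limma adjusted p = 0.0045), with all 3 KO samples above the controls in MDA-MB-468 and all 3 below in MDA-MB-231. NT5E showed the same arrangement of its samples, with a difference of 1.45 (SE 0.27, 95% interval 0.85 to 2.05, limma adjusted p = 0.0066). For NUAK2 the difference was 0.92 (SE 0.22, 95% interval 0.45 to 1.39, limma adjusted p = 0.019). The FPKM SD of NUAK2 was 0.586 over the MDA-MB-231 samples and 0.225 in the MDA-MB-468 controls. Its place in the table thus leans on the MDA-MB-468 KO samples, which also give this difference. The calls of CTGF, NT5E and NUAK2 were kept in 12 of 12 fits that left out a sample. The CRIM1 difference of 0.55 (SE 0.14, limma adjusted p = 0.025) was lost in 5 of these 12 fits, at limma adjusted p of 0.052 to 0.059, those without MDA-MB-468 control replicate 1, MDA-MB-468 KO replicates 2 or 3, or MDA-MB-231 KO replicates 1 or 2.

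For the remaining members no difference was called. It was 0.44 for AMOTL2 (95% interval 0.14 to 0.74, limma adjusted p = 0.052) and 0.40 for ANKRD1 (95% interval 0.07 to 0.74, limma adjusted p = 0.096). CYR61 had a difference of 0.11 (95% interval -0.26 to 0.47) and AMOTL1 of -0.12 (95% interval -0.47 to 0.22). When replicate number was a block AMOTL2 passed (limma adjusted p = 0.041), as it did without MDA-MB-468 control replicate 2 (limma adjusted p = 0.025) or KO replicate 1 (limma adjusted p = 0.027). For the 2 CCN genes side by side, the change in MDA-MB-468 was 1.12 for CTGF (95% interval 0.56 to 1.69) and -0.21 for CYR61 (95% interval -0.40 to -0.02), and the difference between the genes was not tested.

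The same values can be read as the gap between the lines, which the KO comparisons share their control samples with. The CTGF gap, MDA-MB-468 minus MDA-MB-231, was -3.08 in control and -1.12 in KO samples, and the NT5E gap was -2.88 and -1.44. In FPKM, the CTGF level of MDA-MB-468 was 10.9% of the MDA-MB-231 level in control samples and 44.7% in KO samples, and the NT5E level was 13.2% and 37.8%. The CRIM1 gap was -1.02 and -0.47. For these genes the KO samples of the lines still did not overlap.

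NUAK2 was the member whose order turned. Its gap was -0.43 in control samples, where MDA-MB-231 lay above, and 0.49 in KO samples, where the MDA-MB-468 values of 2.56, 3.16 and 3.20 overlapped the MDA-MB-231 values of 2.30, 2.48 and 2.68. The gap of AMOTL2, higher in MDA-MB-468 in both genotypes, was 0.70 and 1.14. ANKRD1 (-5.45 and -5.04), CYR61 (-1.75 and -1.64) and AMOTL1 (-0.35 and -0.48) had gaps of like size in both genotypes. Ordered over the 4 groups, CTGF and NT5E had no overlap between neighbours, with MDA-MB-231 control highest, then MDA-MB-231 KO, MDA-MB-468 KO and MDA-MB-468 control.

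**Figure D4:**
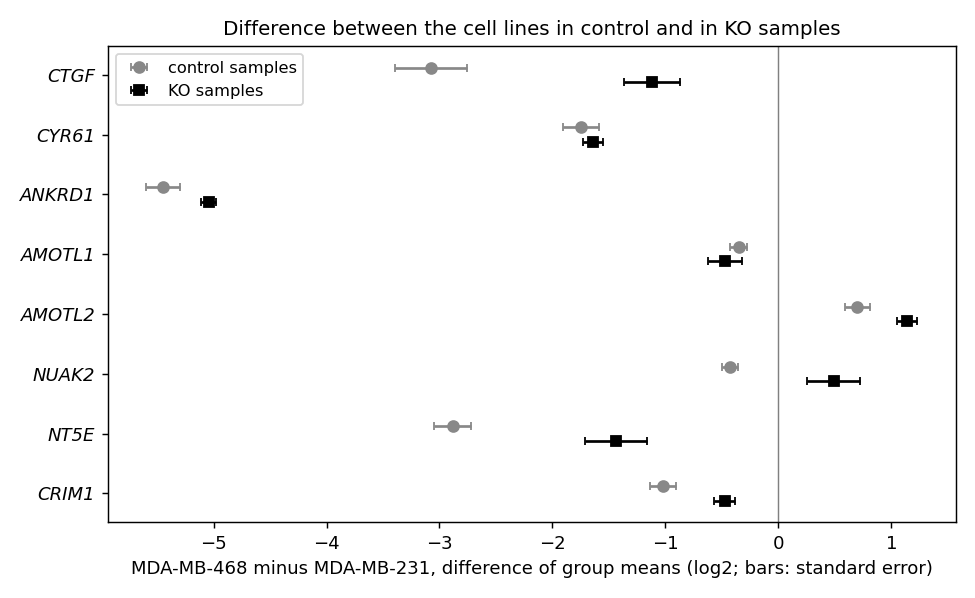
Difference between the lines for each member, MDA-MB-468 minus MDA-MB-231, in control samples (grey circles) and KO samples (black squares). The x axis is the difference of mean log2(FPKM + 1) values and bars are its SE (n = 3 in each group); the CTGF gap lies at -3.08 and -1.12, the NT5E gap at -2.88 and -1.44, and NUAK2 crosses 0.

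The members were also described by how they varied together over the 12 samples after the mean of each cell line was taken off, with no p given, since samples of a group share their genotype. NT5E and CRIM1 were the most alike pair (Pearson r = 0.94 over 12 samples), followed by AMOTL2 and NUAK2 (0.91) and AMOTL2 and CRIM1 (0.90). CTGF varied with NT5E and CRIM1 (0.76 each) more than with CYR61 (0.28). CYR61 and ANKRD1 varied together (0.65), and both ran against AMOTL1 (-0.65 and -0.58). Among CTGF, AMOTL2, NUAK2, NT5E and CRIM1 the pairwise r ran from 0.54 to 0.94. They are the members whose MDA-MB-468 KO samples lay wholly above the controls. The KO shift was not taken off, so positive r among them follows in part from how they were picked. In the whole table the genes most like CTGF by this measure were RGS10 (0.96), IER3 (0.94) and LSM2 (0.94). Those most like CYR61 were MZT1 (0.96), YWHAB (0.94) and CDKN2AIP (0.92), and those most like ANKRD1 were MICU2 (0.97), MRPS10 (0.95) and CD63 (0.94).

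Another 15 genes known as YAP/TAZ targets were all in the table. In MDA-MB-468, 12 had a higher and 3 a lower mean in KO samples, with a median log2 fold change of 0.12, and none was called by limma. Of all 11529 genes, 6177 had a higher and 5241 a lower mean. At an unadjusted limma p under 0.05 there were 4 of the 15 and 2899 of all genes. In MDA-MB-231, 9 had a higher and 6 a lower mean, with a median of 0.02, against 5487 and 5935 of all genes. At an unadjusted limma p under 0.05 there were 6 of the 15 and 3596 of all genes. Of the 15, 1 was called higher, as were 2.39% of all genes. This was IGFBP3, a secreted binding protein of insulin-like growth factors. Its log2 values were 4.59, 4.24 and 4.46 in MDA-MB-231 controls and 5.37, 5.42 and 5.25 in KO samples, so that every KO sample was higher, and it rose by 0.92 (SE 0.10, limma adjusted p = 0.011). The call was lost without KO replicate 1 (limma adjusted p = 0.050) and without KO replicate 2 (limma adjusted p = 0.060). In MDA-MB-468, where IGFBP3 was far more abundant, its values were 8.30, 8.06 and 8.15 in controls and 8.30, 8.69 and 8.80 in KO samples, a log2 fold change of 0.43 (SE 0.14, limma adjusted p = 0.15). The IGFBP3 effect in MDA-MB-468 minus that in MDA-MB-231 was -0.49 and did not pass (limma adjusted p = 0.088).

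The effect on these other targets differed between the lines in 2 of 15, higher in MDA-MB-468 for FJX1 (0.76, limma adjusted p = 0.026) and lower for ASAP1 (-0.57, limma adjusted p = 0.040), where 7.91% of all genes were called higher and 6.83% lower. With a sample left out the FJX1 call was lost in 4 and the ASAP1 call in 9 of 12 fits. In the control samples 10 were called lower and 4 higher in MDA-MB-468, against 31.4% and 32.7% of all genes. The largest of these gaps were -7.89 for AXL, a receptor tyrosine kinase, and 3.74 for IGFBP3.

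**Figure D5:**
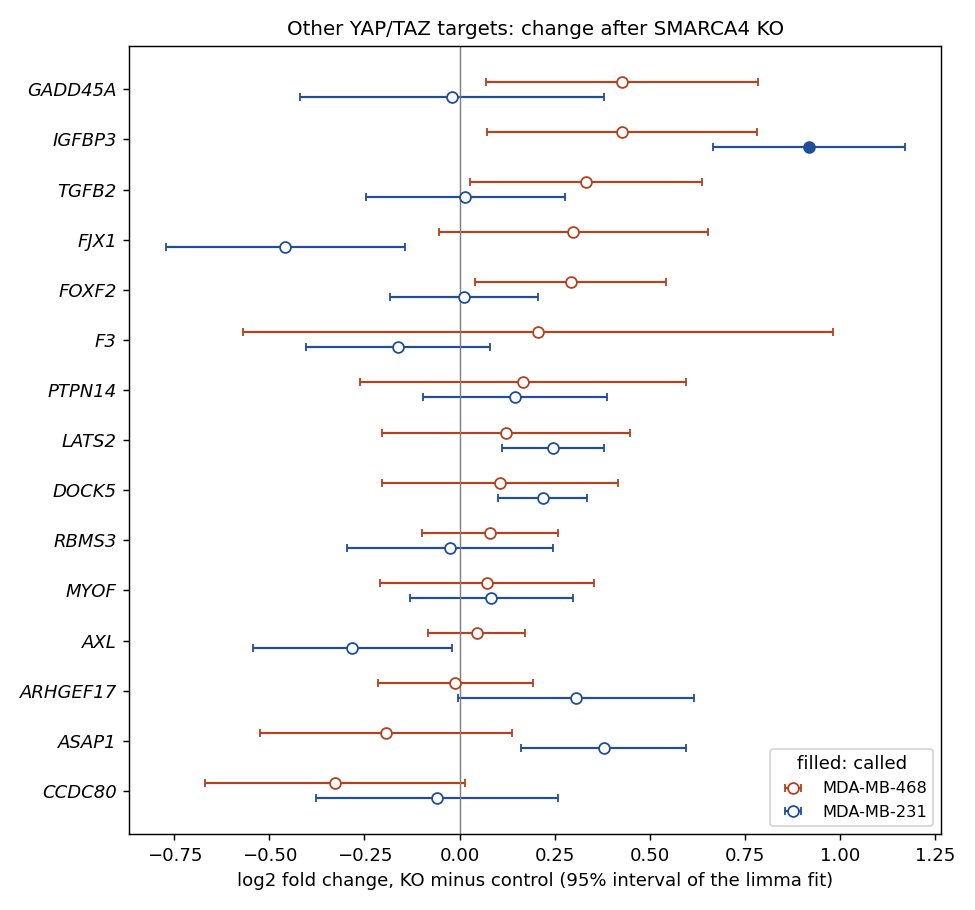
Log2 fold change of KO against control samples for 15 other YAP/TAZ targets in MDA-MB-468 (orange) and MDA-MB-231 (blue). The x axis is the difference of mean log2(FPKM + 1) values, bars are 95% intervals of the limma fit, and filled points are called; IGFBP3 in MDA-MB-231 (0.92) is the filled point.

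The genes of the pathway itself were examined as 23 Hippo and TEAD genes, all in the table. In neither line was any called by limma between KO and control samples, with 5 (MDA-MB-468) and 7 (MDA-MB-231) at an unadjusted p under 0.05, where all 11529 genes gave 2899 and 3596. LATS2 had a log2 fold change of 0.25 in MDA-MB-231 (limma adjusted p = 0.045), under the fold limit. The KO effect differed between the lines in 2 of the 23, with a higher effect in MDA-MB-468 for TAOK3, a kinase upstream of STK3 and STK4 (0.38, limma adjusted p = 0.022), and a lower one for VGLL4, which competes with YAP for TEAD (-0.33, limma adjusted p = 0.028). Of all genes 7.91% were called higher and 6.83% lower by this test. The TAOK3 call was lost in 2 and the VGLL4 call in 6 of 12 fits without a sample. YAP1 log2 values were 6.13, 6.05 and 6.08 in MDA-MB-468 controls and 6.05, 6.04 and 6.17 in KO samples, and the 95% interval of the change was -0.14 to 0.14. In MDA-MB-231 they were 6.07, 6.04 and 5.98 in controls and 6.17, 6.13 and 6.21 in KO samples, a log2 fold change of 0.14 (SE 0.05, limma adjusted p = 0.11). WWTR1 changed by -0.03 in each line, with 95% intervals of -0.14 to 0.08 in MDA-MB-468 and -0.29 to 0.23 in MDA-MB-231. The baseline gaps of these coactivator genes were 0.06 for YAP1 and 0.07 for WWTR1, both small beside those of the targets. These are RNA levels, and the location and phosphorylation of YAP and TAZ were not measured in these data. LATS2 and PTPN14 stood in both lists, since they are pathway genes and targets.

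Of 8 paralogs of the members, 2 were in the table, NUAK1 and AMOT. NUAK1, the kinase closest to NUAK2, had log2 values of 0.68, 0.57 and 0.62 in MDA-MB-468 controls and 0.98, 1.53 and 1.44 in KO samples, and of 3.11, 3.19 and 3.0 in MDA-MB-231 controls and 2.80, 2.75 and 2.89 in KO samples. Its log2 fold changes of 0.70 and -0.29 did not pass (limma adjusted p = 0.064 and 0.050), but their difference, 0.98, did (limma adjusted p = 0.0042), also in 12 of 12 fits without a sample. AMOT was at or near 0 in every MDA-MB-231 sample, and in MDA-MB-468 its values were 5.11, 4.95 and 5.04 in controls and 4.86, 4.57 and 4.65 in KO samples.

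Some line markers moved beside the members. In MDA-MB-231 the epithelial cadherin CDH1 rose by 0.54 (limma adjusted p = 0.044). Its log2 values went from 0.16, 0.34 and 0.50 to 1.01, 0.92 and 0.70. Mean CDH1 FPKM was 0.27 in these controls and 0.84 in KO samples, both near 0 and under the filter limit of 1. It was 44.4 in MDA-MB-468 controls, so the place of CDH1 in the table rests on that line. CD14, a monocyte marker that the basal-like line also expressed, rose by 1.18 in MDA-MB-231 (limma adjusted p = 0.029). CD14 values were 0.84, 1.26 and 1.21 in MDA-MB-231 controls and 2.56, 2.43 and 1.87 in KO samples, against 5.67, 5.75 and 5.56 in MDA-MB-468 controls. With a sample left out, the CDH1 call was lost in 6 of 6 fits and the CD14 call in 5 of 6, and with a pseudocount of 0.1 the CDH1 fold change was 1.42 and did not pass (limma adjusted p = 0.060). VIM, the mesenchymal filament protein, had a log2 fold change of -0.39 in MDA-MB-231 (limma adjusted p = 0.031), under the fold limit. In MDA-MB-468 its log2 values were 2.22, 1.60 and 1.64 in controls and 2.25, 2.17 and 2.31 in KO samples, a fold change of 0.42 on the log2 scale that did not pass (limma adjusted p = 0.21). The 2 effects on VIM differed by 0.81 (limma adjusted p = 0.019). KRT17, a basal keratin, had log2 values of 6.09, 6.94 and 7.28 in MDA-MB-468 controls and 7.46, 8.45 and 8.84 in KO samples, which did not overlap, and its log2 fold change of 1.48 (SE 0.45) did not pass (limma adjusted p = 0.12). No marker of either line was called in MDA-MB-468. Of the 5 MDA-MB-468 markers, 3 had a higher mean in KO samples there, 1 of them, KRT17, at an unadjusted limma p under 0.05. The 3 measured MDA-MB-231 markers also had a higher mean in these KO samples, but ZEB1 and AXL were near 0 and their groups overlapped. Mean FPKM went from 0.063 to 0.15 for ZEB1 and from 0.047 to 0.080 for AXL. In MDA-MB-231 KO samples all 5 MDA-MB-468 markers had a higher mean and 1, CDH1, was called. Of all 11529 genes, 5487 had a higher and 5935 a lower mean there, and 2.39% were called higher. CDH1 and KRT17 were near the floor in MDA-MB-231, with a KRT17 mean FPKM of 0.35 in controls and 1.02 in KO samples. KRT5 stayed at or near 0 there, between 0.00 and 0.31, and the EPCAM log2 means were 3.89 in controls and 3.90 in KO samples. The part of these markers in the differences of the members was not tested.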

How the data were processed

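RNA of 12 samples was sequenced from stranded mRNA libraries. Reads were trimmed with Trimmomatic and mapped to hg19 by STAR, and RSEM gave FPKM per gene. Genes whose FPKM had a mean or SD under 1 were dropped. The deposited values are log2(FPKM + 1), as the authors made them. The table holds 11529 genes, of which 18 rows show a date in place of a symbol and were kept in the tests unnamed. Depth is unknown, so no counting interval was computed.

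Within each line 3 KO and 3 control samples were compared with limma 3.58.1 (R 4.3.3, eBayes without a trend), with Benjamini-Hochberg adjustment over all genes. The fit was tested on simulated data. The labels do not say whether samples are separate cultures, so p-values measure only the spread between these samples. The members and lists were chosen with earlier results of these data known. All members are named, together with the genes of other lists called between KO and control, YAP1 and WWTR1, and for CTGF, CYR61 and ANKRD1 the 3 most alike genes. Other genes named were chosen after their values were seen.

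Replicate numbers come from the sample titles. In MDA-MB-468, KO and control samples with the same number deviated from their group means together (r across genes of 0.25, 0.16 and 0.12). Samples with different numbers were not compared in this way. The p numbers of the sample descriptions pair the MDA-MB-468 samples differently from the replicate numbers, and which pairing holds is unknown. They do not match for every sample, and the KO and control samples left without a match were paired with each other. The main fits used no pairing, and both pairings entered alternative fits only. Alternatives were a pseudocount of 0.1, a mean log2 value over 2, an intensity trend, scaling to the 75th percentile, quantile normalization, a replicate block, 1 fit of all samples, a log2 fold change over 1, and leaving out each sample. Locations come from GENCODE release 44 on GRCh37 and promoter sequences from RefSeq (GRCh38.p14). Python 3.11.15 and matplotlib 3.10.9 were used for tables and figures.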

Additional observations from a re-analysis of the deposited data

Results flagged for a closer look

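The effect of SMARCA4 KO differed between the lines by the limma interaction test (Benjamini-Hochberg adjustment over all genes) in 4 members, SMARCA4 and 9 genes of the other lists, and in 1699 of all 11529 genes. Taken as the effect in MDA-MB-468 minus that in MDA-MB-231, the difference was 1.96 for CTGF (limma adjusted p = 0.0045), 1.45 for NT5E (limma adjusted p = 0.0066), 0.92 for NUAK2 (limma adjusted p = 0.019) and 0.55 for CRIM1 (limma adjusted p = 0.025). SMARCA4 itself differed by 0.41 (limma adjusted p = 0.027), since its log2 value fell by 1.57 in MDA-MB-231 and by 1.16 in MDA-MB-468, and this call was lost in 6 of 12 fits that left out a sample. CDH1 differed by -0.76 (limma adjusted p = 0.014) and CD14 by -1.75 (limma adjusted p = 0.026). The CD14 call was lost in 6 of 12 fits that left out a sample. NUAK1 differed by 0.98 (limma adjusted p = 0.0042), FJX1 by 0.76 (limma adjusted p = 0.026) and ASAP1 by -0.57 (limma adjusted p = 0.040). VIM differed by 0.81 (limma adjusted p = 0.019), TAOK3 by 0.38 (limma adjusted p = 0.022), VGLL4 by -0.33 (limma adjusted p = 0.028) and ERBB2 by -0.42 (limma adjusted p = 0.027), and without a sample the ERBB2 call was lost in 8 and the VIM call in 0 of 12 fits. CD14 values in MDA-MB-468 KO samples were 6.0, 4.82 and 4.44, with replicate 1 above all 3 controls and the other two below them. Groups of 3 samples are too small for a check of single outlying samples.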

How the results depend on the processing

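The values of the 8 members were recomputed in 479 combinations of a member, a comparison and an alternative, of which 440 kept their direction and their side of the threshold, 21 lost and 14 gained a call, and 4 changed sign. The sign changes were AMOTL2 in MDA-MB-231, at 0.0018 with 75th percentile scaling, 0.0039 with quantile normalization and 0.011 without control replicate 1 (-0.078 to 0.011 over the 6 samples left out), and the CYR61 difference between the lines, at -0.023 without MDA-MB-231 control replicate 1 (-0.023 to 0.24 over the 12 samples left out). YAP1 in MDA-MB-468, at -0.0011, ran from -0.044 to 0.023 when a sample was left out, and WWTR1 in MDA-MB-231 was 0.0034 with 75th percentile scaling and ran from -0.13 to 0.042 when a sample was left out. In MDA-MB-468, where 247 genes and 1 member were called higher or lower, a mean log2 value over 2 gave 400 genes and 3 members higher, 1 fit of all samples gave 537 genes and 3 members higher, and a log2 fold change over 1 gave 53 genes. Pairing by the p number of the sample descriptions, with the unmatched KO and control samples paired with each other, gave 0 genes and 0 members. In that fit 2218 genes had an unadjusted p under 0.05 in limma. It is therefore only in part a pairing by p number. The replicate block gave 0 members and 241 genes. In MDA-MB-231, where 426 genes and 1 member lower were called, the mean filter and the fit of all samples each gave 2 members lower, and a log2 fold change over 1 gave 85 genes and 0 members. The same-numbered samples did not deviate together there (r of -0.05, 0.07 and -0.11), and the replicate block gave 0 genes and 0 members, with 3126 genes at an unadjusted p under 0.05 in limma. In the baseline, a log2 fold change over 1 gave 4150 of the 7395 genes and 0 members higher. Leaving out 1 sample gave 0 to 474 genes and 0 to 2 members higher in MDA-MB-468, 99 to 311 genes and 0 members lower in MDA-MB-231, and 924 to 1897 genes, against 1699, with 3 to 5 members higher for the difference between the lines. The count in MDA-MB-468 was 0 without control replicate 2 and without KO replicate 2, with 2288 and 2023 genes at an unadjusted p under 0.05. Under the replicate block NUAK2 lost its call in MDA-MB-468, ANKRD1, SMARCA4, IGFBP3, CDH1 and CD14 lost theirs in MDA-MB-231 (ANKRD1 limma adjusted p = 0.106), AMOTL2 gained one between the lines, where FJX1, ASAP1 and VGLL4 lost theirs, and no other call of a member changed. The cause of these changes was not tested.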
